A study of Mus musculus with 3 samples.

Results

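Transcription factors known from anterior eye development were followed across the cell types of the mouse iridocorneal angle: *Foxc1*, *Foxc2*, *Lmx1b*, *Pax6*, *Tfap2a*, *Tfap2b*, *Zic1*, *Otx1* and *Six3*. They were chosen by name, as 9 of the 31053 genes counted, and all 9 had counts in each library. The tissue was the iridocorneal angle and corneal limbus of mice aged 6 weeks, made into single-cell suspensions and measured in 3 droplet libraries. Control replicates 1 and 2 came from *Angpt1* flox/flox mice without Cre, and the third library came from *Angpt1* flox/flox;Wnt1Cre+ mice, called *Angpt1*ΔNC, in which Cre under the *Wnt1* driver deletes *Angpt1* in neural crest cells and their descendants. All mice carried the floxed *Angpt1* allele on a mixed strain background that had been crossed to albino ICR mice, and each library pooled the eyes of 2 to 3 animals, described as male and female together, so comparisons between genotypes were made over libraries. A single *Angpt1*ΔNC library exists, so its own animal-to-animal spread is unknown. The p-values reflect only the spread between the pooled control samples, estimated with information shared over all genes, and not the spread between animals.

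The tissue at the angle has several embryonic sources. Neural crest and mesoderm give the periocular mesenchyme, from which the corneal stroma, corneal endothelium, trabecular meshwork and mural cells form; the optic cup gives the ciliary and pigment epithelia; and the surface ectoderm gives the corneal, limbal and conjunctival epithelia. *Foxc1* and *Foxc2* are forkhead factors of the mesenchyme and of vessels, *Lmx1b* is a LIM homeodomain factor needed in the mesenchyme, and *Tfap2a* and *Tfap2b* are AP-2 factors of neural crest and ectoderm. *Pax6* is a paired box factor that heads eye development, *Otx1* and *Six3* are homeodomain factors of the optic vesicle and forebrain, and *Zic1* is a zinc finger factor of the dorsal neural tube. In people, changes in *FOXC1*, *PAX6* and *LMX1B* are known causes of anterior segment disease with glaucoma.

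A level is given here as the UMIs (unique molecular identifiers, each standing for 1 captured transcript) of a gene in all cells of a cluster label of the study and a library, per 1,000,000 UMIs of those cells. The kept cells numbered 9076, 10160 and 6772 in control replicate 1, control replicate 2 and *Angpt1*ΔNC, with 76981606, 80346829 and 66484181 UMIs and medians of 6329.5, 6393.5 and 7444 UMIs per cell. A UMI of at least 1 of the 9 genes was seen in 5245, 6137 and 4495 of these cells. The targeted gene *Angpt1* stood at 37.8 and 39.3 in the controls and at 0.391 in *Angpt1*ΔNC. *Xist* stood at 0.0390 and 0.0249 in the controls and at 652 in *Angpt1*ΔNC, so the control pools held hardly any RNA of this female-specific gene against their description, and sex and genotype cannot be told apart. Pairs of libraries shared 13 to 25 kept barcodes, at most 0.275% of the smaller library. The immune cells (labels 22 to 25) served as a measure of free RNA, since they are not known to use these factors. Over these 4 labels summed, the levels of the 9 genes ran from 0 to 5.39, with *Foxc1* in *Angpt1*ΔNC at the top, and a UMI was found in at most 1.85% of cells at median depths of 5873 to 6226 UMIs. Single immune labels reached more: *Foxc1* in label 22 stood at 0, 16.7 and 43.2 from 0, 7 and 15 UMIs, *Foxc2* there at 4.33, 4.77 and 14.4, and *Tfap2b* in label 25 at 0, 12.7 and 0 from 0, 2 and 0 UMIs.

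*Lmx1b* lies on the minus strand of chromosome 2 (GRCm38, 33560965 to 33640511 in the GENCODE annotation). The RNA gene *C130021I20Rik* (33641193 to 33646354) begins 682 bases from this GENCODE start of *Lmx1b*, on the opposite strand. This pair is shown first because, among 10961 genes with at least 500 UMIs in the controls, *C130021I20Rik* had the level pattern most like that of *Lmx1b* (Pearson r = 0.97 over 34 labels). The window of the RefSeq start of *Lmx1b*, 250 bases before to 50 after it, is chr2:33641049-33641348, on the minus strand. The annotated start of *C130021I20Rik* falls inside it, and the GENCODE start of *Lmx1b*, a different one, lies outside it. *Zic1* (chromosome 9, minus strand, 91358058 to 91365810) overlaps *Zic4* on the opposite strand (91362413 to 91389348), and its window, chr9:91365719-91366018 on the minus strand, lies within the annotated extent of *Zic4*. The sequences are from RefSeq, build GRCm38.p6, read 5′ to 3′ on the strand of the member, with CCAAT boxes in capitals. Of the 9 genes 7 had at least 1 window, and *Foxc2* and *Otx1* are named only.
Lmx1b: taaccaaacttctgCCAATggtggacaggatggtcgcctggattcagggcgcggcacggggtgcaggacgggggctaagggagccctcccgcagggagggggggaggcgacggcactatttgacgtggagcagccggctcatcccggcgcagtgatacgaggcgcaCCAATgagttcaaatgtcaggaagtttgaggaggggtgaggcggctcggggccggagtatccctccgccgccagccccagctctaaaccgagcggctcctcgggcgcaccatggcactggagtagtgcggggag
Zic1: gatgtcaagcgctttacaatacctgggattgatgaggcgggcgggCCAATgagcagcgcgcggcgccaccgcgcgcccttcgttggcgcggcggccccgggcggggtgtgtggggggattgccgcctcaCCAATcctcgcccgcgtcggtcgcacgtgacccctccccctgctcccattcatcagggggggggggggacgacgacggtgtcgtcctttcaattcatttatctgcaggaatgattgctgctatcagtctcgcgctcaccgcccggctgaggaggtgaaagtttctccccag
The letters CCAAT, searched on both strands, were found 2 times in each of these windows and in 37.4% of 32851 windows of the genome. The AP-2 core GCCNNNGGC was in the windows of *Zic1*, *Foxc1* and 1 of the windows of *Pax6*, against 16.6% of all windows. The homeodomain core TAATTA was in 1 window of *Tfap2a*, against 5.29% of all, and the forkhead core GTAAACA, found in 3.65% of all, was in none of the members' windows.

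The other members lie at chromosome 13, 31806633 to 31812476 (*Foxc1*), chromosome 8, 121116171 to 121118895 (*Foxc2*), chromosome 2, 105668900 to 105697364 (*Pax6*), chromosome 13, 40715302 to 40738376 (*Tfap2a*), chromosome 1, 19208914 to 19238576 (*Tfap2b*), chromosome 11, 21994764 to 22002897 (*Otx1*) and chromosome 17, 85613608 to 85629302 (*Six3*). *Pax6* overlaps *Pax6os1* and *Tfap2a* overlaps *Gm26688*, each on the opposite strand. These partners were far less counted, with 28 to 52 UMIs of *Pax6os1* and 59 to 96 of *Gm26688* per library. Since the sources used here do not state whether counting used strand, reads from such overlaps cannot be assigned with certainty.

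The 9 genes fell into 3 broad patterns over the labels. *Foxc1*, *Foxc2*, *Lmx1b* and *Tfap2b* were found in stroma and in mural or smooth muscle cells. *Pax6*, *Otx1* and *Tfap2a* were found in epithelia and pigmented cells, and *Zic1* and *Six3* in few labels. Within the first pattern *Lmx1b* was low in the mural labels, with 1.47, 2.59 and 1.05 in label 20 and 2.43, 11.4 and 0 in label 21. These are descriptions of labelled clusters, with no test between them.

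**Figure D1:**
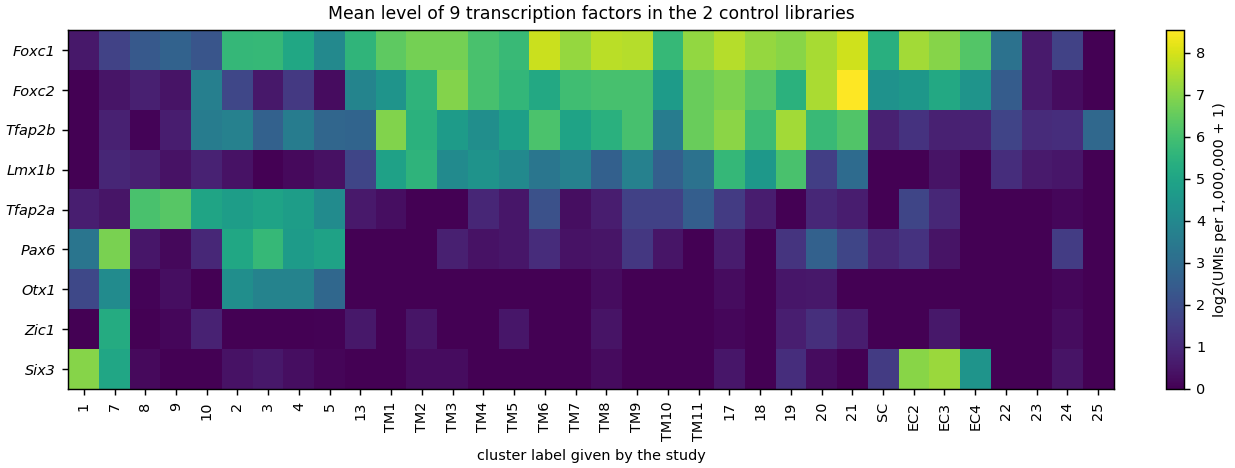
Mean level of the 9 genes in the 2 control libraries, as log2(UMIs per 1,000,000 + 1), with genes in rows and the study's cluster labels in columns. *Foxc1* is high over all TM labels and over labels 17 to 21, while *Zic1* stands out in label 7 alone and *Six3* in labels EC2, EC3, EC4, 1 and 7.

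*Foxc1* was the most broadly found of the forkhead pair. Its level was highest in label 21, the vascular smooth muscle of the study, at 226 and 256 in the controls and 223 in *Angpt1*ΔNC. The label TM6, part of the uveal stroma, followed with 220, 241 and 225, so that the ranges of the first 2 labels overlapped. A UMI was found in 59.6%, 60.3% and 60.9% of the label 21 cells. The label 20, whose pericyte markers *Rgs5*, *Kcnj8* and *Abcc9* were all detected in each library, stood at 170, 167 and 170, the closest agreement of the 3 libraries among the 7 highest labels. Across the stromal labels the control means of *Foxc1* ran from 52.2 in TM10 to 231 in TM6. The genes whose levels were most like those of *Foxc1* over the labels were *Luzp1* (r = 0.90), *Tshz2* (r = 0.89) and *Efnb1* (r = 0.86), the last an ephrin ligand.

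Among endothelial cells, which line blood vessels and Schlemm's canal, *Foxc1* was unevenly spread. It stood at 154, 167 and 173 in EC2 (32, 38 and 37 cells) and at 114, 135 and 146 in EC3. In the Schlemm's canal label SC it was 29.0, 53.0 and 40.9, with 46, 63 and 15 cells, and all 3 libraries there lay below every library of EC2 and EC3. The blood endothelial label EC4 stood at 50.7, 101 and 68.7, and its control range overlapped that of SC. In the controls *Foxc1* was 30.2 and 35.6 in limbal epithelium (label 4) and 15.3 and 15.3 in corneal epithelium (label 5). The values in corneal epithelium lay above the 5.39 that the immune labels summed reached at most. They were no higher than the 16.7 of immune label 22 in control replicate 2, a label that stood at 0 in control replicate 1. The part of free RNA in the corneal values was not tested.

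*Foxc2*, which is also known from lymphatic valves and vessel walls, peaked in the same mural labels. In label 21 its level was 382 and 358 in the controls and 248 in *Angpt1*ΔNC. In label 20 it was 173 and 178 in the controls and 258 in *Angpt1*ΔNC. The *Angpt1*ΔNC library was thus below both controls in vascular smooth muscle and above both in pericytes, and neither difference was tested on its own. With each cell thinned to 2000 UMIs the share of label 21 cells with a *Foxc2* UMI was 49.7%, 45.6% and 35.3%, against 70.7%, 70.7% and 58.0% unthinned.

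Outside the mural cells *Foxc2* had its highest control mean in TM3, a label of the trabecular meshwork group, with 122, 122 and 114. Label 17 overlapped it with 90.9, 138 and 137, and in *Angpt1*ΔNC TM9, TM10, TM11 and label 17 all exceeded TM3. The corneal endothelium label TM2 held 52.9, 40.0 and 43.1, and the keratocyte label TM1 17.1, 24.1 and 18.2. In Schlemm's canal it was low, with 18.1, 20.6 and 20.4 from 10, 14 and 3 UMIs, and EC4 was similar at 17.4, 23.3 and 12.4. Over the 34 labels with at least 20 cells in each control, the log2 control levels of *Foxc1* and *Foxc2* had a Pearson r of 0.85. Labels share libraries, depth and free RNA, so this value only describes the pattern. *Fbxl7* (r = 0.91), *Pttg1ip* (r = 0.90) and *Gm13889* (r = 0.90) were most like *Foxc2*. Within label 21, *Foxc1* was found in 58.6%, 62.6% and 67.5% of cells with a *Foxc2* UMI and in 61.8%, 54.9% and 51.7% of cells without, so the libraries differed in direction.

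*Lmx1b* and *Tfap2b* shared their leading labels. *Lmx1b* was highest in label 19, the smooth muscle of the study, with 64.9 and 67.9 in the controls and 81.5 in *Angpt1*ΔNC, the last from 54 cells and 30 UMIs. Label 17, a stromal group with *Acta2* and *Lum*, followed with 45.7, 54.5 and 34.1, and TM2, the corneal endothelium, with 41.9, 49.3 and 41.0. The control ranges of label 17 and TM2 overlapped and that of label 19 did not reach them. In the pericyte label 20 *Lmx1b* was 1.47, 2.59 and 1.05, near the 0 to 0.966 of the immune labels summed, although *Foxc2* was high there.

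*C130021I20Rik* followed *Lmx1b* from label to label, though with its own order. It stood at 28.9, 28.2 and 21.7 in label 19, at 31.4, 30.8 and 32.6 in label 17, at 23.6, 23.9 and 28.3 in TM2 and at 32.8, 26.9 and 25.98 in TM1, the keratocytes. In label 7 it was at 0 UMIs in every library. The likeness was close in the *Angpt1*ΔNC library as well, with r = 0.96. *Emx2* (r = 0.92) and *Igdcc4* (r = 0.91) came next.

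*Tfap2b* was highest in the same label 19, with 156 and 172 in the controls and 117 in *Angpt1*ΔNC. It stood at 142, 124 and 90.3 in label 17 and at 130, 109 and 84.0 in TM1. In each of these 3 labels the *Angpt1*ΔNC library lay below both controls, and the counts behind it were 43, 419 and 97 UMIs. In the uveal labels TM7 and TM8 the order was turned, with 19.4, 40.7 and 57.8 in TM7 and 36.7, 46.7 and 54.2 in TM8. The genes most like *Tfap2b* included *Emx2* (r = 0.90) and the predicted gene *Gm26523* (r = 0.86).

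*Lmx1b* and *Tfap2b* were also found together in cells of label 19. Of its cells with an *Lmx1b* UMI, 58.5%, 62.9% and 52.6% also had a *Tfap2b* UMI, against 48.0%, 51.7% and 37.1% of the cells without. Cells with *Lmx1b* were deeper, with medians of 6052.5, 6810 and 6853 UMIs against 5809, 5891 and 6016, and the part of depth in this difference was not tested.

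**Figure D2:**
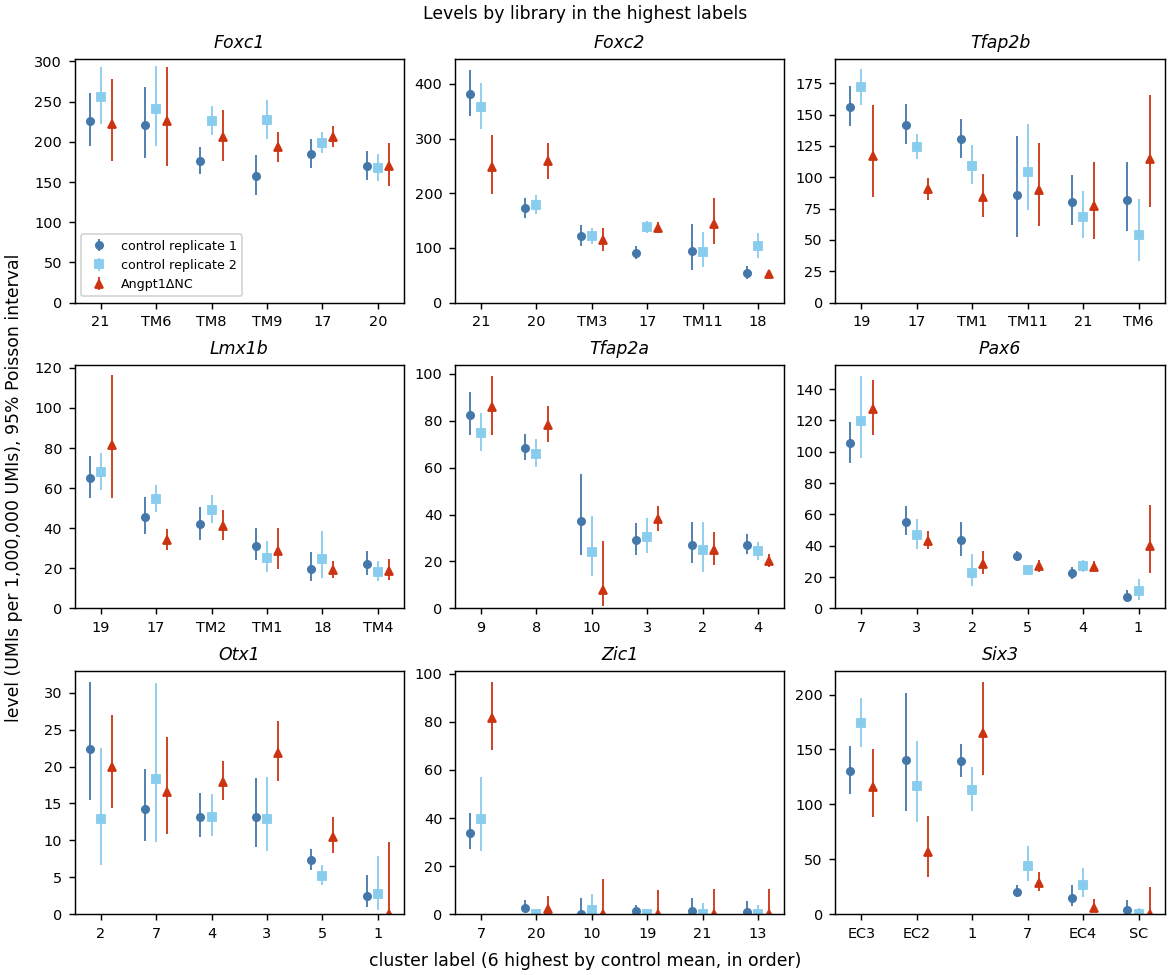
Level of each of the 9 genes in its 6 highest labels (x axis, ordered by control mean) in UMIs per 1,000,000 (y axis), with 1 point per library and exact 95% Poisson intervals, which cover counting error only. The *Angpt1*ΔNC point lies above both controls, with an interval clear of theirs, for *Zic1* in label 7, *Pax6* in label 1 and *Foxc2* in label 20, and below both for *Foxc2* in label 21 and *Tfap2b* in label 17.

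*Pax6* marked the epithelia of both optic cup and surface origin. It was highest in label 7, the ciliary epithelium, with 105 and 120 in the controls and 127 in *Angpt1*ΔNC, and a UMI was found in 42.1%, 38.3% and 46.8% of the cells. Conjunctival epithelium (label 3) followed with 55.4, 46.9 and 43.2, then the limbal stem cell label 2 with 43.4, 22.5 and 28.6. Corneal (label 5) and limbal (label 4) epithelium stood at 33.5, 24.8 and 26.9 and at 22.3, 26.9 and 26.6, and the control ranges of labels 2, 5 and 4 overlapped. In the retinal pigment epithelium (label 1) *Pax6* was 7.39 and 10.8 in the controls and 39.9 in *Angpt1*ΔNC, the last from 15 UMIs in 17 cells. The pigment epithelium genes *Ttr* and *Rpe65* were lower in these 17 cells as well, with 42715 against 96636 and 89446 for *Ttr* and 1034 against 4980 and 4957 for *Rpe65*, and the part of such a difference in cell makeup was not tested.

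*Otx1* had few UMIs, 292, 204 and 450 in all, and stayed in the labels of *Pax6*. It stood at 22.4, 12.9 and 19.99 in label 2, at 14.2, 18.3 and 16.5 in label 7, at 13.2, 13.2 and 17.98 in label 4 and at 13.2, 12.9 and 21.8 in label 3. The counting intervals of these labels overlapped in both controls, so the order of labels 2, 7, 4 and 3 is not resolved. *Pax6* was the gene most like *Otx1* among all genes compared, with r = 0.94, followed by *Snai3* (r = 0.94) and *Defb1* (r = 0.92). The genes most like *Pax6* were *Pard6b* (r = 0.91), *Dapl1* (r = 0.87) and *Defb1* (r = 0.85). By rank correlation these were 0.58, 0.51 and 0.32, and over all 9 members 16 of the 27 genes most alike by r were also among the first 50 by rank.

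*Tfap2a* was highest in cells of the melanocyte lineage, which derive from neural crest. Label 9 held 82.7, 74.9 and 85.7, and label 8 held 68.5, 66.0 and 78.2, with every control of label 9 above every control of label 8. Both labels carried the melanocyte markers *Mlana*, *Pmel*, *Dct* and *Tyrp1*, with *Dct* at 14739, 18033 and 23701 in label 8. The glial label 10, named astrocytes by the study and with *Gfap* at 761, 714 and 509, followed with 37.2, 24.2 and 8.01 from 20, 16 and 2 UMIs. The surface epithelia came next, with 29.1, 30.3 and 38.2 in conjunctival and 27.0, 24.4 and 20.2 in limbal epithelium. *Cdh1*, the adhesion molecule of epithelia, was most like *Tfap2a* (r = 0.87), before *Phldb3* (r = 0.85) and *Moxd1* (r = 0.84).

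The AP-2 pair had different leading labels. In smooth muscle label 19, where *Tfap2b* was highest, *Tfap2a* had 0 UMIs in each library, which allows a level of up to 1.27, 0.930 and 8.15. *Pax6* and *Tfap2a* met in the surface epithelia: in label 3, 62.8%, 48.9% and 65.5% of cells with *Pax6* had a *Tfap2a* UMI, against 29.1%, 30.2% and 42.9% of cells without, and the cells with *Pax6* were deeper (25590, 23597 and 29894 UMIs against 19811, 15708 and 18511). In corneal epithelium the same shares were 38.5%, 36.6% and 42.9% against 26.4%, 17.2% and 26.2%.

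*Zic1* was in effect a gene of 1 label. In the ciliary epithelium it stood at 33.9 and 39.5 in the controls and at 81.4 in *Angpt1*ΔNC, from 86, 28 and 133 UMIs, whereas label 20, the next by control mean, had 7 UMIs over all libraries. A UMI was found in 13.9%, 11.2% and 36.0% of the label 7 cells. Thinned to 1000 UMIs per cell these shares were 2.22%, 2.80% and 8.63%, and thinned to 2000 they were 4.58%, 10.8% and 6.61%, which gives no order. *Zic4*, its overlapping neighbour, stood at 13.02, 12.7 and 23.3 in the same label, and *Zic2*, another zinc finger gene of this family, at 15.4, 29.6 and 20.2.

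The cells of label 7 with a *Zic1* UMI often held the other optic cup factors. *Pax6* was found in 68.2%, 83.3% and 68.0% of the 44, 12 and 50 cells with *Zic1* and in 37.9%, 32.6% and 34.8% of those without. *Six3* was found in 25.0%, 75.0% and 32.0% of them and in 7.72%, 8.42% and 7.87% of those without. Depth differed here too, with medians of 8874, 10487.5 and 11817 UMIs in cells with *Zic1* against 7824, 6458 and 7916. The level of *Six3*, which is set against the UMIs of the same cells, was 41.3, 167 and 36.7 in cells with *Zic1* and 15.3, 17.2 and 19.7 in those without. The genes most like *Zic1* were *Necab2* (r = 0.84), *Crhbp* (r = 0.81) and *Scg5* (r = 0.81), values that rest on label 7, since the rank correlation of *Crhbp* was 0.06.

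Label 7 was mixed by its markers. All 5 ciliary epithelium markers were detected in each library, at a summed level of 1672, 1685 and 1086. The smooth muscle list (*Acta2*, *Myh11*, *Tagln*) stood at 12512, 10329 and 5269. The label is therefore called ciliary epithelium here as the study named it, and its makeup differed between the libraries.

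*Six3* had 2 separate homes. In blood endothelium it stood at 130 and 174 in the controls and 116 in *Angpt1*ΔNC for EC3, and at 140, 117 and 56.6 for EC2. In the retinal pigment epithelium it stood at 140, 113 and 165, which overlapped the endothelial range. Ciliary epithelium held 20.5, 43.7 and 28.8 and EC4 14.5, 26.4 and 5.50. In Schlemm's canal *Six3* had 2, 0 and 0 UMIs, and the immune labels summed stood at no more than 0.490.

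*Ttr*, a transcript of the pigment epithelium, was measured beside *Six3*. For every 100 *Ttr* UMIs, label 1 held 0.144, 0.126 and 0.386 *Six3* UMIs, while EC3 held 622, 1258 and 1933. In EC3 54.2%, 69.5% and 39.7% of cells had a *Six3* UMI, and *Plvap*, a gene of fenestrated endothelium, stood there at 3788, 3733 and 1915. EC3 cells with *Six3* had a *Foxc1* UMI in 67.2%, 68.3% and 65.2% of cases, against 22 of 54, 18 of 36 and 18 of 35 cells without, at about 11181.5, 12533.5 and 9436 UMIs per cell against 5027.5, 7444 and 5283. The genes most like *Six3* were *Slco1a4* (r = 0.86), *Thrsp* (r = 0.86) and *Scarb1* (r = 0.80), the first an organic anion transporter of vessels and the last a lipoprotein receptor.

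**Figure D3:**
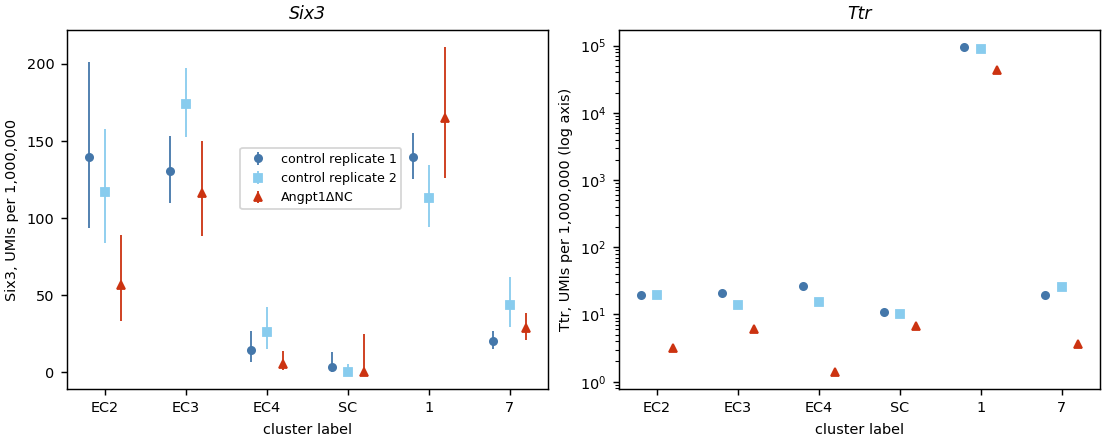
Level of *Six3* (left, linear axis, with exact 95% Poisson intervals) and of *Ttr* (right, log axis) in UMIs per 1,000,000 for 6 labels, 1 point per library. In the controls *Six3* is in 1 range in EC2, EC3 and label 1, whereas *Ttr* is at 26.1 or less in all shown labels but label 1.

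Genotypes were compared over summed counts of 4 groups of labels, with edgeR and Benjamini-Hochberg adjusted p-values over all genes tested, 2 control libraries against 1. Only genes that pass a filter on low counts enter, so 6 members could be tested in stroma (labels TM1 to TM11), 6 in epithelium (labels 4 and 5), 3 in endothelium (SC, LEC, EC2 to EC4) and 4 in ciliary epithelium (label 7). The class levels below are scaled by edgeR's TMM factors. Among all genes 8.97% were called in stroma, 5.72% in epithelium, 12.9% in endothelium and 0.788% in ciliary epithelium, at an adjusted p under 0.05. Called members numbered 0 of 6 in stroma, 2 of 6 in epithelium, 2 of 3 in endothelium and 0 of 4 in ciliary epithelium. At an unadjusted p under 0.05, edgeR had 1 of 6 members in stroma, against 3600 of 13942 genes, and 1 of 4 in ciliary epithelium, against 1297 of 9766, and DESeq2 called none of the members in these 2 classes. Of the 4 members called by edgeR, DESeq2 called *Foxc1* in epithelium alone (adjusted p = 0.00602). Called higher were 2.81% of all genes in epithelium and 0.246% in ciliary epithelium, and called lower 2.91% in epithelium.

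In epithelium *Foxc1* rose, from 18.7 and 23.01 in the controls to 45.98 in *Angpt1*ΔNC. Its log2 fold change was 1.14 ± 0.18 (SE; edgeR, adjusted p = 0.0122). The 2 labels of the class each showed it, with 30.2, 35.6 and 51.0 in limbal epithelium and 15.3, 15.3 and 33.8 in corneal epithelium, where *Angpt1*ΔNC lay above both controls. Tested alone, a choice made after these values were seen, limbal epithelium gave 0.77 (edgeR, adjusted p = 9.57e-04) and corneal epithelium 1.24 (edgeR, adjusted p = 0.0258), with 11.9% and 2.23% of all genes called in the 2 labels. With equal numbers of cells per label the change in the class was 0.80 and missed the threshold (edgeR, adjusted p = 0.0873).

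The stromal transcripts *Lum* and *Kera* stayed low in both epithelial labels. *Lum* stood at 2.36, 7.21 and 5.26 in label 4 and 3.27, 5.68 and 3.77 in label 5, and *Kera* at 0.676, 0.460 and 0.199 in label 4. Both were lower in *Angpt1*ΔNC in the keratocyte label TM1 as well, with *Kera* at 6317, 6222 and 1744 and *Lum* at 6976, 7318 and 4991. They are therefore no measure of free *Foxc1* RNA. The makeup of label 5 did differ, since *Krt15*, a keratin of limbal cells, stood at 106, 288 and 1922 there. The part of that shift in the *Foxc1* level was not tested. *Foxc1* also stood higher in *Angpt1*ΔNC in immune label 22, at 43.2 against 0 and 16.7, and over the immune labels summed it was at most 5.39, and the part of free RNA in the epithelial rise was not tested. Conjunctival epithelium and label 2 also had *Angpt1*ΔNC above both controls, at 45.4, 57.4 and 76.9 and at 46.8, 53.7 and 69.5.

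*Otx1* rose in the same class, from 8.55 and 8.18 to 15.6, with a log2 fold change of 0.90 ± 0.20 (SE; edgeR, adjusted p = 0.0416). This call was lost with DESeq2 (adjusted p = 0.262) and with equal numbers of cells per label (0.68; edgeR, adjusted p = 0.120). *Tfap2b*, at 5.95, 9.20 and 3.65, did not pass in the class (log2 fold change -1.05; edgeR, adjusted p = 0.107). In limbal epithelium alone it fell by 1.28 on the log2 scale (edgeR, adjusted p = 0.00159), with levels of 9.46, 12.4 and 4.07, and in corneal epithelium alone the value was -1.09 and not called (edgeR, adjusted p = 0.243). *Otx1* tested alone gave log2 fold changes of 0.59 in limbal and 0.85 in corneal epithelium, and neither was called. The class held 414, 507 and 641 cells of label 4 and 575, 505 and 270 of label 5, so its makeup differed between libraries. *Pax6* and *Tfap2a* had log2 fold changes of 0.05 ± 0.17 and 0.18 ± 0.19 (SE).

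In endothelium *Six3* fell, from 69.1 and 94.4 to 47.4, with a log2 fold change of -0.79 ± 0.22 (SE; edgeR, adjusted p = 0.0132). By label, *Angpt1*ΔNC lay below both controls in EC2, EC3 and EC4, there from 18, 58 and 4 *Six3* UMIs. The label makeup differed between libraries, with 32, 38 and 37 cells in EC2, 118, 118 and 58 in EC3 and 96, 107 and 87 in EC4. In these 3 labels without SC and LEC, a choice made after the values were seen, the change was -0.89 (edgeR, adjusted p = 0.0389), with 9.56% of all genes called. It did not pass with DESeq2 (-0.77, adjusted p = 0.486) or with equal numbers of cells per label (-0.70; edgeR, adjusted p = 0.0665).

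*Foxc2* rose in endothelium, from 24.8 and 25.3 to 45.0, with a log2 fold change of 0.84 ± 0.23 (SE; edgeR, adjusted p = 0.0121). The label LEC, the lymphatic endothelium, held 3 and 1 cells in the controls and 12 in *Angpt1*ΔNC, and these 12 cells carried 23 of the 76 *Foxc2* UMIs of the class at a level of 161. Without SC and LEC the change was 0.39 and not called (edgeR, adjusted p = 0.402), and with equal numbers of cells per label it was 0.54 (edgeR, adjusted p = 0.270), and DESeq2 gave an adjusted p of 0.660. EC3 had *Foxc2* at 32.8, 35.6 and 64.0, *Angpt1*ΔNC lay within the controls in EC2 and SC, and in EC4 it lay below both, at 17.4, 23.3 and 12.4. *Foxc1* in endothelium stood at 78.1, 110 and 113 (log2 fold change 0.26 ± 0.19, SE).

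**Figure D4:**
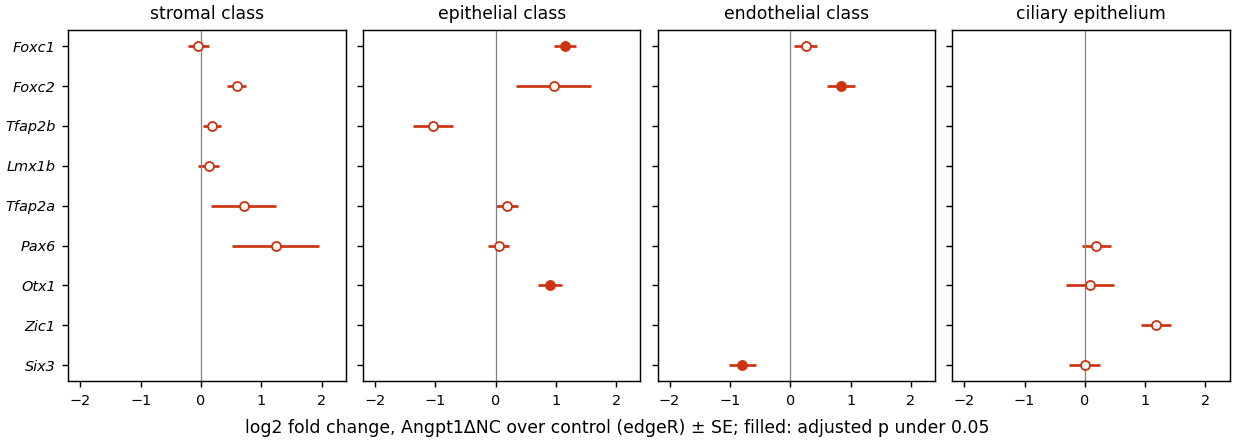
Log2 fold change of *Angpt1*ΔNC over control (x axis), from edgeR, for each member that passed the filter, in 4 classes of labels. Bars are standard errors derived from the fold change and the edgeR F value. Filled points have an adjusted p under 0.05: *Foxc1* and *Otx1* in epithelium and *Foxc2* and *Six3* in endothelium.

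In ciliary epithelium *Zic1* had the greatest change of the 4 members tested, at 34.0, 40.1 and 82.2, a log2 fold change of 1.18 ± 0.25 (SE). It had an unadjusted p of 0.00173 and did not pass after adjustment over all genes (edgeR, adjusted p = 0.0911), although it did with no filter on low counts (0.00312). *Zic4* moved the same way without passing (0.85 ± 0.36, SE; edgeR, adjusted p = 0.366). *Pax6*, *Otx1* and *Six3* had log2 fold changes of 0.19, 0.09 and 0.00.

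In stroma no member was called. *Foxc2* came closest, at 52.96, 63.7 and 88.02, with a log2 fold change of 0.59 ± 0.16 (SE; edgeR, adjusted p = 0.0513). It passed with RLE size factors (edgeR, adjusted p = 0.0424), with equal numbers of cells per label (0.0251) and with no filter (0.00387), and not with DESeq2 (0.114). *Foxc1* was at -0.05 ± 0.17, *Lmx1b* at 0.12 ± 0.18 and *Tfap2b* at 0.18 ± 0.15, and *Pax6* and *Tfap2a* were at levels of about 1 or less in this class.

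Of the 11 stromal labels, TM10, the *Cd34* positive stroma, had the highest ratio of *Angpt1*ΔNC to control for *Foxc2*. There it stood at 27.7 and 21.1 in the controls and at 166 in *Angpt1*ΔNC, 6.81 times the control mean, from 35, 23 and 256 UMIs. A UMI was found in 10.8%, 10.2% and 45.7% of the 194, 167 and 188 cells, and in 2.06%, 2.395% and 16.0% once each cell was thinned to 1000 UMIs. TM10 was singled out after these values were seen. Tested alone it gave a log2 fold change of 2.80 (edgeR, adjusted p = 9.13e-21; DESeq2 2.81, adjusted p = 1.99e-05), where edgeR called 11.6% of the genes. The *Angpt1*ΔNC library also lay above both controls in TM4, TM6 to TM9 and TM11, by ratios to the control mean of 1.32 in TM4 to 2.36 in TM6. Without TM10 the change in the class was 0.40 (edgeR, adjusted p = 0.141), where 10.2% of genes were called.

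*Foxc1* did not move with it in TM10, at 47.6, 56.9 and 43.5 (log2 fold change -0.22; edgeR, adjusted p = 0.705). *Tfap2b* stood there at 11.1, 11.01 and 26.6, a log2 fold change of 1.31 (edgeR, adjusted p = 0.0188), which DESeq2 left without an adjusted p. The *Cd34* stroma markers were present in all 3 libraries, with *Cd34* at 974, 809 and 842 and *Mfap5* at 2443, 2268 and 2669. Other markers moved: *Clec3b* stood at 1379, 1317 and 2364, *Kera* at 165, 140 and 13.6, and *Chil1* at 208, 140 and 18.2. *Kera* was lower in the keratocyte label TM1 as well, at 6317, 6222 and 1744. Cell makeup, free RNA and expression cannot be told apart here, and their part in the *Foxc2* level was not tested. *Meox2*, a homeobox gene of mesenchyme whose level was highest in TM10, stood there at 58.7, 59.7 and 10.4.

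**Figure D5:**
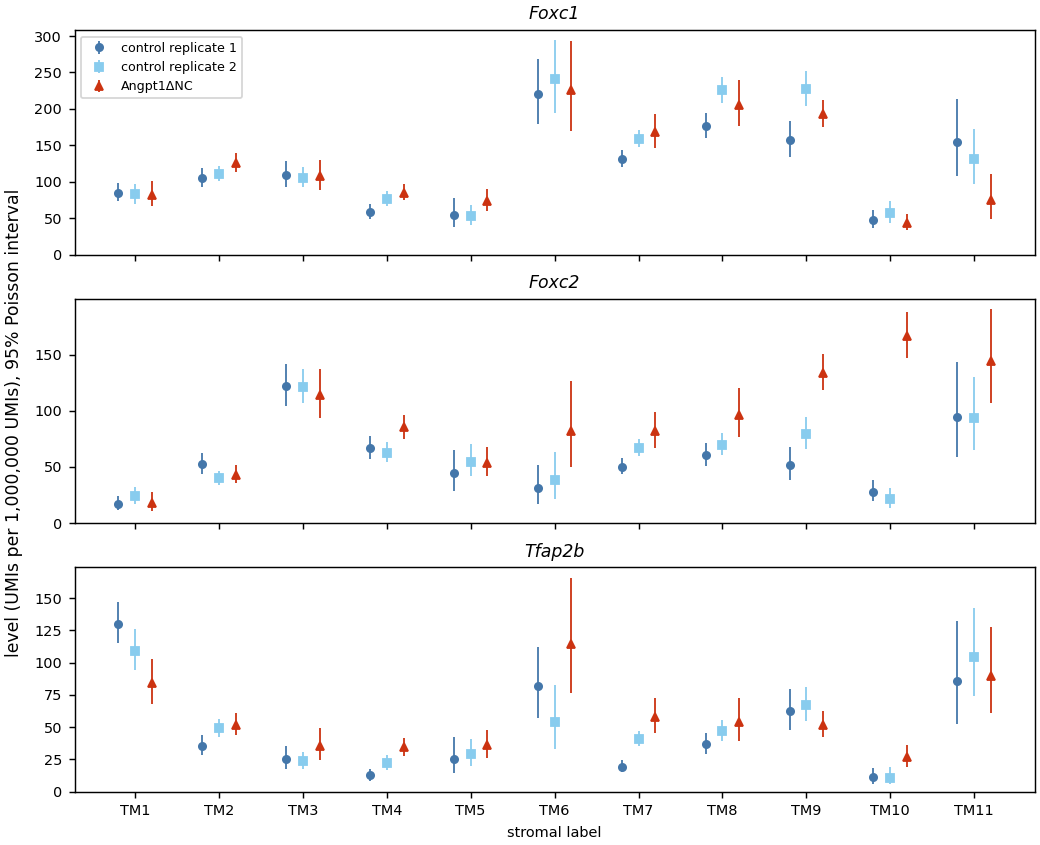
Levels of *Foxc1*, *Foxc2* and *Tfap2b* (UMIs per 1,000,000, exact 95% Poisson intervals) in the 11 TM labels, 1 point per library. *Foxc2* in TM10 stands at 166 in *Angpt1*ΔNC against 27.7 and 21.1 in the controls, while *Foxc1* there lies below both controls with overlapping intervals.

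The other factors of the same tissues were taken from 2 lists. Of 22 genes of periocular mesenchyme 18 were tested in stroma, where 1 rose and 4 fell by edgeR, against 3.46% of all genes called higher and 5.52% called lower, and DESeq2 called 1, with a median log2 fold change of -0.26 against -0.01 over all genes. *Nr2f1* rose (41.0, 52.6 and 73.8; log2 fold change 0.66, edgeR, adjusted p = 0.0469). *Foxd1*, another forkhead gene, fell from 16.7 and 12.96 to 1.93 (-2.93 ± 0.28, SE; edgeR, adjusted p = 6.48e-04). *Foxf2* (-1.10), *Meox2* (-1.74) and *Six2* (-2.76) fell as well, *Six2* from only 3.403 and 1.93. The label makeup of the stromal class differed between libraries, with 667, 739 and 174 cells in TM7 and 591, 612 and 155 in TM8. *Foxd1* was highest in TM7, at 59.3, 52.4 and 14.0 there. The part of label makeup in the class changes of these list genes was not assessed. In endothelium 9 of the list were tested and 3 fell by edgeR, against 4.82% of all genes called lower and 8.12% called higher, while DESeq2 called 1: *Maf*, at 97.7, 123 and 41.4, *Foxl2*, at 30.4, 24.4 and 11.8, and *Sox9*, at 19.5, 40.8 and 13.02. *Maf* was highest in SC, the label with 46, 63 and 15 cells, at 337, 406 and 61.3. Of 10 tested in epithelium none was called by edgeR or DESeq2, and 3 had an unadjusted p under 0.05 with edgeR, against 2846 of 12341 genes. In ciliary epithelium 1 of 13 fell, again *Foxd1*, at 32.8, 27.2 and 2.47 (-3.60 ± 0.49, SE; edgeR, adjusted p = 0.0264), against 0.543% of all genes called lower, and DESeq2 called none.

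Of 16 genes of the optic cup and neuroepithelium 13 were tested in ciliary epithelium and none was called by edgeR or DESeq2, with 2 at an unadjusted p under 0.05 with edgeR, against 1297 of 9766 genes, and a median of -0.44. *Mitf*, *Lhx2* and *Rax* shared the highest label of *Pax6* and *Zic1*, with *Mitf* at 217, 176 and 174, *Lhx2* at 93.1, 91.7 and 68.0 and *Rax* at 62.7, 76.2 and 38.0 there. *Hes1*, a Notch target, was the gene of this list called in stroma (199, 178 and 297; 0.66, edgeR, adjusted p = 0.0291) and in epithelium (654, 647 and 1158; 0.83, edgeR, adjusted p = 0.0297), and its highest label, EC3, is that of *Six3*. In endothelium *Meis1* was called lower, with 11 and 16 UMIs in the controls and 0 in *Angpt1*ΔNC, at least 2.91-fold lower if 3 UMIs are allowed for that library (edgeR, adjusted p = 0.0362), and DESeq2 did not call it. *Msx1*, a homeobox gene, shared its highest label 21 with *Foxc1* and *Foxc2*, at 122, 116 and 99.9.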

How the data were processed

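Single-cell suspensions of the iridocorneal angle and limbus were counted in 3 droplet libraries. The authors deposited raw UMI counts of 31053 genes per called cell, made with Cell Ranger (2.1.1 and build mm10 in the submitters' processing notes, 3.0.2 in the file headers) without normalization, and a cluster label for each cell kept after filters on genes, UMIs and mitochondrial reads and removal of doublets. Their integrated values were not used, since 3 of the 9 genes are absent from them. Counts were summed by label and library and set per 1,000,000 UMIs; intervals are exact 95% Poisson or Clopper-Pearson intervals and cover counting error only. Genotypes were tested with edgeR 4.0.16 in R 4.3.3 (genes kept by filterByExpr, TMM factors, quasi-likelihood test), calling genes at a Benjamini-Hochberg adjusted p under 0.05, with DESeq2 1.42.0 as an alternative. With 2 libraries against 1, only 1 degree of freedom was left for the spread, and the *Angpt1*ΔNC library is taken to vary as the controls do. The fit shares the spread over all genes, so small p-values rest largely on that shared estimate and not on the gene's own spread. Each SE was taken as the absolute log2 fold change divided by the square root of the edgeR F value. All 9 genes are named, with up to 3 genes most alike in log2(level + 1) over labels with at least 20 cells in each control, and from the 2 lists those called in a class or sharing a member's highest label at a control mean of at least 50. The members and lists were chosen with earlier results of these data known. Gene positions are from GENCODE M21 (30934 of 31053 identifiers found). Some genes that the rule or the marker lists take in are not reported here.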

Additional observations from a re-analysis of the deposited data

How the results depend on the processing

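No paired analysis was possible, since the labels give no pairing of libraries and a single *Angpt1*ΔNC library exists. The genes called in stroma (1251) became 636 with DESeq2, 2441 without a filter on low counts, 606 with an absolute log2 fold change over 1 and 160 in TM10 alone with DESeq2. Those in epithelium (706) became 431 with DESeq2, 1814 without a filter, 350 with equal numbers of cells per label, 1257 in label 4 alone and 253 in label 5 alone. Those in endothelium (1250) became 257 with DESeq2 and 578 with the limit on fold change, and those in ciliary epithelium (77) became 626 without a filter and 319 with equal numbers of cells. The single-label settings, and the ones without SC and LEC or without TM10, were chosen after seeing the data. No direction of a called member was reversed under any alternative run. Leaving out a control leaves 1 library against 1, which gives a fold change and no test: *Six3* in endothelium was -0.54 without control replicate 2 and *Foxc1* in endothelium ran from 0.04 to 0.54. Depth limits the values of *Zic1* and *Otx1*, which rest on few UMIs, and of the members in SC and LEC, which hold few cells. The causes of these shifts were not tested.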
